A study of Mus musculus with 24 samples.

Results

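The 10 small nucleolar RNA (snoRNA) host genes were followed in optogenetic mouse muscle, and Snhg7 stood first among them because it was chosen by its measured fall in level at 1 Hz against control. The 10 members were found by symbol among 56941 genes in the deposited tables: Snhg1, Snhg5, Snhg6, Snhg7, Snhg8, Snhg12, Snhg15, Snhg17, Gas5 and Zfas1. All 10 were among the 13318 genes that carried enough counts to be tested. The cells were C2C12 myoblasts, a mouse muscle precursor line, of genotype ChR2::tdTomato, so every group including the controls carried a light-gated cation channel fused to a red fluorescent protein. They came from a single engineered line and were differentiated with horse serum and IGF-1 into muscle sheets on fibrin gel. Sheets were left unstimulated (control) or given blue light at 1, 4 or 10 Hz for 30 min each day, with 6 libraries in each of the 4 groups and 24 in all. Sheets also twitched spontaneously, so the controls were not at rest.

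A snoRNA host gene carries snoRNAs inside its introns. After splicing, the excised introns are trimmed to snoRNAs, which guide chemical modification of ribosomal RNA: box C/D snoRNAs direct methylation of the ribose, and box H/ACA snoRNAs direct conversion of uridine to pseudouridine. The spliced host transcript is a separate product. Many such transcripts start with a pyrimidine-rich tract like that of ribosomal protein mRNAs, and several are removed by nonsense-mediated decay when translation is active. The counts described here are those assigned to the host genes, not to the snoRNA entries. They do not separate spliced from unspliced host RNA. Of 37 snoRNA entries 8 lie within exons of a canonical host transcript, where host and snoRNA sequence coincide. The canonical transcript of Snhg12 has 1 exon.

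Snhg7 (ENSMUSG00000120369) lies on the minus strand of chromosome 2, from 26526613 to 26530577 in GRCm39, and its canonical transcript has 3 exons and 1789 bases. Its snoRNAs are of the H/ACA class, shown here because they differ from those of the C/D hosts that make up much of the family. The class is not particular to Snhg7. All entries of Snhg8, Snhg15 and Snhg17 also had an ACA near the end, as did 3 of 5 in Snhg12. For Snhg7 the annotation lists 3 entries, of which the pair named Snora43 overlap, and the longer of that pair is shown. Each is printed 5′ to 3′ from the GENCODE annotation, with the ACA box near its 3′ end in capitals.
Snora17, chr2:26529202-26529333, minus strand, within an intron: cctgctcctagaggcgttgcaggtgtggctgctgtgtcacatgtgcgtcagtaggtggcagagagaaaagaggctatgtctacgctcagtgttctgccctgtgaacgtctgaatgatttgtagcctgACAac
Snora43, chr2:26527859-26527997, minus strand, within an exon of the canonical transcript: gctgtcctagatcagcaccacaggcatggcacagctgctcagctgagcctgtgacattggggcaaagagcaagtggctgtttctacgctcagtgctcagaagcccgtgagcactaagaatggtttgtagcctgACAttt

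Across the 10 members the annotation places 37 snoRNA entries, some of them overlapping, on the host's strand, 29 in introns of the canonical host transcript and 8 in its exons. In these sequences a C box (TGATGA within the first 20 bases) together with a D box (CTGA within the last 15) occurred in 20, an ACA within the last 8 bases in 13, both in 2 and neither in 6. Gas5 held the most, 10 entries, of which 8 had both the C and the D box. Snhg1 held 8, Snhg12 held 5, and Snhg6, Snhg8 and Snhg15 held 1 each. The snoRNAs themselves were hardly counted: 29 of the 37 had no count in any of the 24 libraries, and the highest total over all libraries was 4.96. Their levels therefore could not be followed.

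Start sites are shown because hosts that move with ribosomal protein mRNAs are known for a pyrimidine tract there. RefSeq promoter windows of GRCm38.p6 were given for 9 of the 10 members, Snhg6 being the exception. The tract searched was a C followed by at least 5 C or T bases, on the gene's strand only, with the C at most 5 bases from the annotated start. It was found at a listed start of 4 of the 9 members, of 11.9% of all 27025 symbols and of 42.6% of 61 cytosolic ribosomal protein symbols. Each line below gives 30 bases before and 30 from the start, with the tract in capitals, followed by Snhg1 as a member without a match.
Snhg7, chr2:26640215-26640274, minus strand: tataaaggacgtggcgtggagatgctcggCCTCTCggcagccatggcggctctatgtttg
Gas5, chr1:161035136-161035195, plus strand: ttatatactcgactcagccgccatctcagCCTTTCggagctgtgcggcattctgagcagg
Snhg8, chr3:123508307-123508366, minus strand: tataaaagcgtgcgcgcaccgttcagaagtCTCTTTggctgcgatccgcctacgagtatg
Snhg12, chr4:132308648-132308707, plus strand: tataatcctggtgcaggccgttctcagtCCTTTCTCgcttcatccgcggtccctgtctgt
Snhg1, chr19:8723457-8723516, plus strand: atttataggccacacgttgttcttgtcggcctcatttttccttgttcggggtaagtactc

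Libraries held 4085578 to 15194554 estimated counts. They differed in RNA that poly(A) selection should leave behind. The small RNA share, the sum of 7SK, signal recognition particle and other small RNAs without a poly(A) tail (none of them a member's snoRNA), was 132 ± 25.8 CPM (counts relative to all counts of the library) in controls (SD, n = 6), 29.5 ± 20.6 at 1 Hz, 27.1 ± 11.7 at 4 Hz and 125 ± 84.9 at 10 Hz. It was lower than control at 1 and 4 Hz (exact permutation test, two-sided, p = 0.00216 each, adjusted p = 0.00649) but not at 10 Hz (p = 0.868). The ribosomal RNA share was likewise low at 1 and 4 Hz, with means of 1.16% in controls, 0.268% at 1 Hz, 0.309% at 4 Hz and 1.11% at 10 Hz. Low-input samples were made by ribodepletion, and the labels do not say which, so library preparation and condition cannot be told apart. Muscle markers were abundant in all 24 libraries (Acta1, skeletal actin, at 2560 to 7198 TPM), whereas endothelial and neuronal markers stayed below 1 TPM. Of the macrophage markers, Ptprc and Adgre1 were near 0 and Cd68 was at 86.2 to 168 TPM.

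Per length of transcript, Zfas1 and Gas5 were the most abundant hosts. In control libraries Zfas1 was at 637 ± 78.7 TPM (per length and depth, SD, n = 6) and Gas5 at 587 ± 83.9 TPM, within each other's spread. Snhg8 followed at 246 ± 34.5 TPM. Snhg1 (143 ± 34.7 TPM) and Snhg6 (135 ± 31.3 TPM) overlapped, as did Snhg7 (58.3 ± 9.73 TPM), Snhg5 (54.8 ± 8.26 TPM) and Snhg15 (52.9 ± 4.38 TPM). Snhg12 stood between these sets at 94.9 ± 9.25 TPM, and Snhg17 was lowest at 29.8 ± 5.42 TPM. Over all 24 libraries Zfas1 gave 33.3% of the members' summed TPM, Gas5 28.9% and Snhg7 1.65%. The summed level was 2039 ± 263 TPM in controls, 2080 ± 102 at 1 Hz, 2360 ± 99.7 at 4 Hz and 2341 ± 111 at 10 Hz.

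Snhg7 was low at 1 and 4 Hz and high in controls and at 10 Hz, on a scale of normalised CPM. The control libraries held 47.9, 24.8, 46.9, 40.2, 43.9 and 39.3 CPM. At 1 Hz the libraries held 11.2, 8.63, 6.20, 8.19, 8.68 and 6.26 CPM. At 4 Hz they held 12.5, 13.4, 11.0, 10.2, 10.5 and 7.01 CPM. The 1 and 4 Hz values overlapped each other and lay below every control value, the nearest being control replicate 2. At 10 Hz the libraries held 54.5, 70.3, 63.1, 32.6, 28.7 and 19.5 CPM, with 3 libraries above all controls and 1 below all controls. The coefficient of variation at 10 Hz was 46.0%, whereas it ran from 3.39% to 21.4% in the other 9 members.

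**Figure D1:**
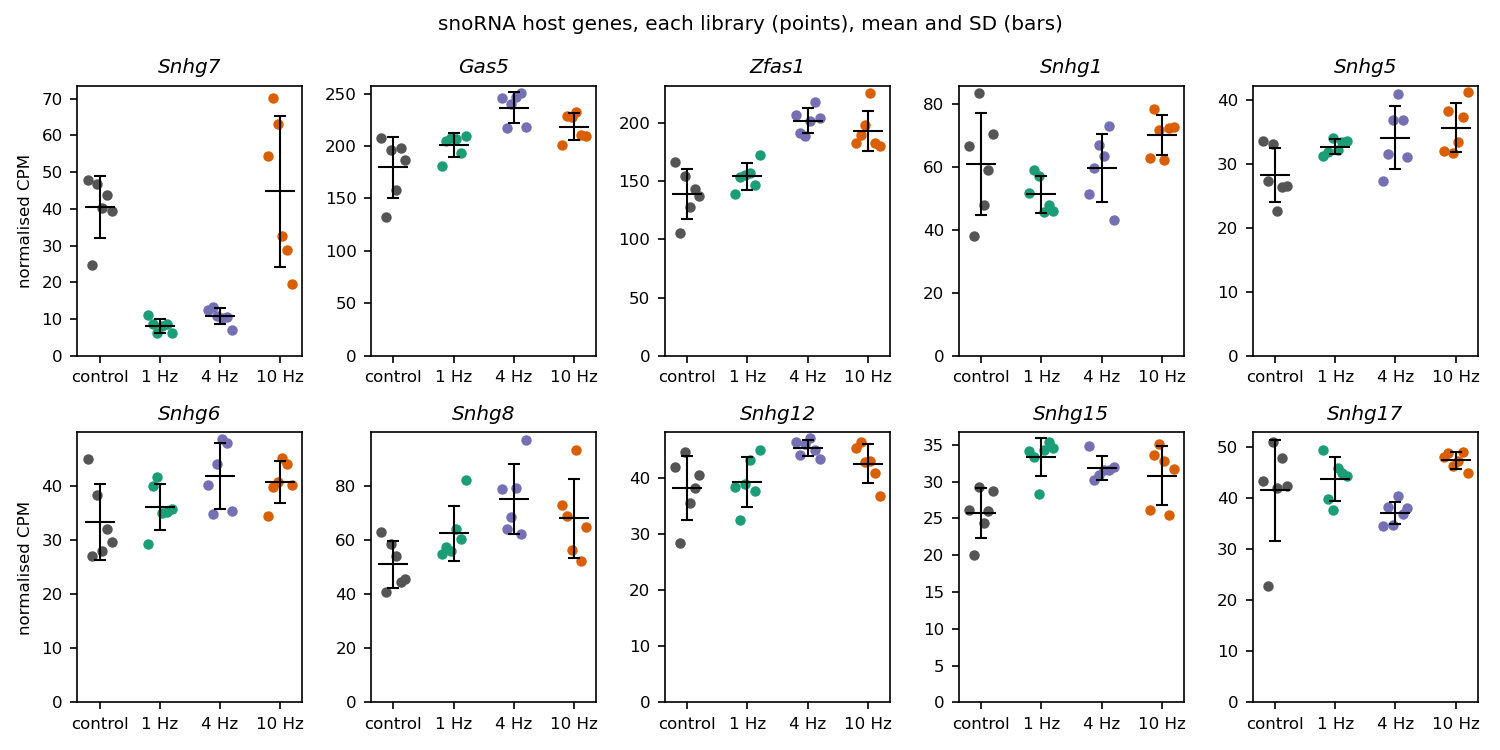
Normalised CPM of the 10 snoRNA host genes (vertical axes, linear from 0) in each library by condition, with points for single libraries and bars for the mean and SD of 6. Snhg7 lies at 6.20 to 13.4 CPM in all 1 and 4 Hz libraries and at 19.5 to 70.3 CPM in all others, while the other 9 genes move far less.

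Snhg7 was chosen for its fall at 1 Hz, so comparisons with the control and 1 Hz libraries are given as description. Its log2 fold change was -2.34 ± 0.26 (SE) at 1 Hz against control, -1.92 ± 0.24 at 4 Hz and 0.15 ± 0.22 at 10 Hz. Against 1 Hz it was 0.43 ± 0.27 at 4 Hz and 2.49 ± 0.25 at 10 Hz. With the small RNA share as a covariate the value became -1.14 at 1 Hz and -0.73 at 4 Hz against control, and 1.36 at 10 Hz against 1 Hz. Among 13318 genes the value at 1 Hz ranked 33 from the lowest.

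The comparison of 10 Hz with 4 Hz used neither group of the rule and was tested. Earlier results of these libraries were known when the gene was proposed, so its p-values here are not those of an independent test. Snhg7 was 44.8 ± 20.6 CPM at 10 Hz and 10.8 ± 2.20 at 4 Hz (SD, n = 6 each). The difference was 4.19-fold, or 2.07 ± 0.24 on the log2 scale (SE, edgeR quasi-likelihood test, adjusted p = 1.10e-05). All 6 libraries at 10 Hz lay above all 6 at 4 Hz, and the change ranked 35 from the highest of 13318. A gene counted as called when its adjusted p was below 0.05 and its absolute log2 fold change above 0.5. By that rule 1 of the 10 members, Snhg7, was called, against 11.0% of all genes. With the small RNA share as a covariate the difference was 0.95 on the log2 scale (adjusted p = 0.381), and with the ribosomal RNA share it was 1.14 (adjusted p = 0.0508). These losses were not particular to Snhg7: of 13318 genes the edgeR fit with the small RNA share called 0 between 10 and 4 Hz, also by adjusted p alone, and the fit with the ribosomal RNA share called 18, in place of 1460. Muscle marker counts also moved: the 8 summed to 10903 to 16852 CPM at 4 Hz and 7719 to 11916 at 10 Hz, and 3 of the 8 (Acta1, Mylpf and Tnnt3) were called lower at 10 Hz. Their part in the Snhg7 difference was not tested, and in bulk RNA fewer cells of a type and less RNA per cell cannot be told apart.

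Within conditions, Snhg7 was the member with the steepest slope on the small RNA share. A model of the 24 libraries with condition and log2 share gave Snhg7 a slope of 0.50 ± 0.10 (SE) log2 units per log2 unit of share (edgeR, adjusted p = 0.0332). It was the only member called among 10, by adjusted p alone, against 0.0976% of all genes, and its slope ranked 95 from the highest. The other 9 slopes ran from -0.08 to 0.07, and the members' median was 0.02 beside -0.001 over all genes. The 13 genes called included Rn7sk, Rpph1 and Rn18s-rs5, of which the first pair is part of the share itself. The number of genes called depended on the fit. It was 746 with the ribosomal RNA share in place of the small RNA share, 153 in DESeq2 and 76 without the low-count filter. Scaling by total counts gave 11, DESeq2 size factors 12, and limma on log2(TPM + 1) and a block on replicate number 3 each. Past the unadjusted p were 1662 of 13318 genes, so the slope was not particular to Snhg7. Both the gene and the relation were proposed with results of these libraries known, so the slope and its p-values are given as description.

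The slope was 0.43 under a block on replicate number (adjusted p = 0.232) and 0.46 in limma on log2(TPM + 1) (adjusted p = 0.10), past the threshold in neither. It leaned on the 10 Hz libraries. Within 10 Hz alone it was 0.65 (adjusted p = 0.0327), and without the 10 Hz libraries it was 0.29 (adjusted p = 0.787). Leaving out control replicate 5, 1 Hz replicate 1, 3 or 6, or 10 Hz replicate 1, 2, 5 or 6 each brought the adjusted p above the threshold, to between 0.0518 and 0.426, with slopes from 0.40 to 0.54. Within 10 Hz, replicate 2 had the highest share (271 CPM) and the highest Snhg7 (70.3 CPM), and replicate 6 the lowest of both (36.9 CPM and 19.5 CPM).

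Libraries of similar share could still differ in Snhg7. The 1 Hz replicate 1, at a share of 69.2 CPM, held 11.2 CPM of Snhg7, whereas 10 Hz replicate 5, at 65.1 CPM, held 28.7 CPM. The 4 Hz replicate 3, at 49.7 CPM, held 11.0 CPM, and 10 Hz replicate 6, at a lower share of 36.9 CPM, held 19.5 CPM. These are single libraries and were not tested.

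**Figure D2:**
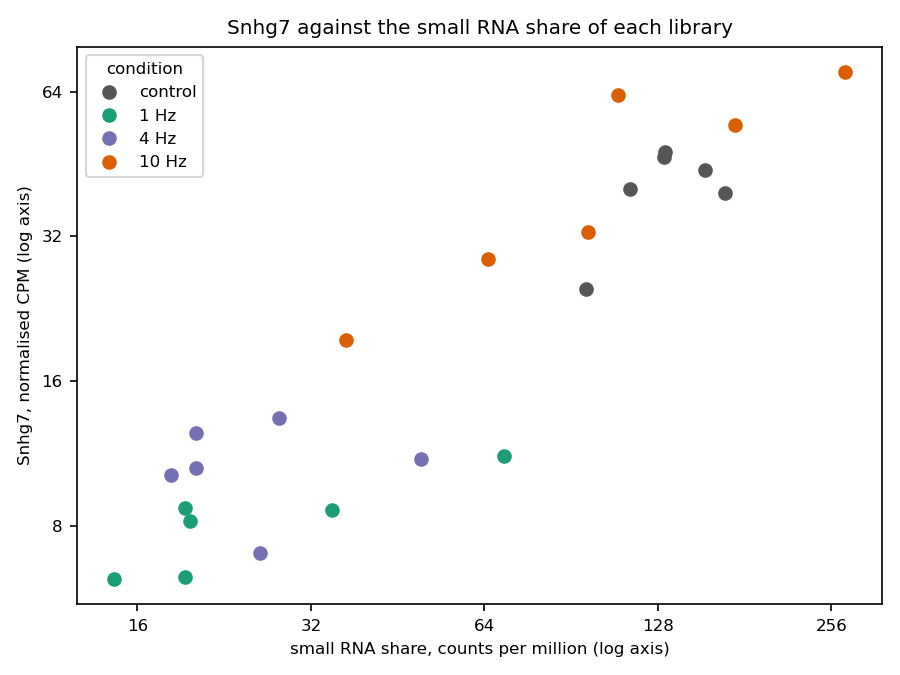
Snhg7 (normalised CPM) against the small RNA share (CPM) of each of the 24 libraries, both on log axes and coloured by condition. The 1 and 4 Hz libraries lie low on both axes, and the 10 Hz libraries run from 36.9 to 271 CPM in share and from 19.5 to 70.3 CPM in Snhg7.

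The box C/D hosts were led by Gas5 and Zfas1, which were higher at 4 Hz than in controls. Gas5, a growth-arrest transcript also known as a decoy for the glucocorticoid receptor, held 132, 158, 186, 196, 198 and 207 CPM in the control libraries in rising order. At 4 Hz it held 217, 218, 240, 245, 247 and 251 CPM, above every control. Its log2 fold change was 0.40 ± 0.08 (SE, edgeR adjusted p = 0.000579), under the fold threshold. It was 0.25 in limma on log2(TPM + 1) (adjusted p = 0.0308) and 0.41 with the small RNA share as covariate (adjusted p = 0.123). At 1 Hz Gas5 ran from 181 to 210 CPM and at 10 Hz from 201 to 232 CPM, overlapping the controls. The 10 Hz value was 0.28 ± 0.08 (adjusted p = 0.0501), and the adjusted p was 0.0237, 0.0462 and 0.0426 without control replicate 1, control replicate 3 and 10 Hz replicate 1.

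Zfas1, antisense to the start of Znfx1 and host of Snord12, was higher than control at both 4 and 10 Hz. Its control libraries held 106, 127, 137, 143, 154 and 167 CPM in rising order. At 4 Hz it held 189, 191, 202, 204, 207 and 218 CPM, and at 10 Hz it held 180, 182, 183, 189, 198 and 226 CPM. Neither range touched the controls or the 1 Hz libraries, which ran from 139 to 173 CPM. The log2 fold change against control was 0.54 ± 0.09 at 4 Hz (SE, edgeR adjusted p = 2.69e-05, called) and 0.47 ± 0.09 at 10 Hz (adjusted p = 0.00180, under the fold threshold). The 4 Hz call rested on control replicate 2, without which the value was 0.48, and the 10 Hz value reached 0.54 or 0.51 and was called without control replicate 1 or 3. At 4 Hz it was 0.44 with total count scaling, 0.40 in limma on log2(TPM + 1) and 0.50 with the small RNA share as covariate (adjusted p = 0.0612). Against 1 Hz, Zfas1 was higher at 4 Hz by 0.39 ± 0.08 (adjusted p = 0.00377) and at 10 Hz by 0.33 ± 0.08 (adjusted p = 0.00394), and 10 and 4 Hz differed by -0.06 ± 0.08 (adjusted p = 0.628).

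Snhg1, Snhg5 and Snhg6 changed less. Snhg1, whose introns hold 8 snoRNAs including Snord22, was at 61.0 ± 16.3 CPM in controls, 51.4 ± 5.79 at 1 Hz, 59.6 ± 10.8 at 4 Hz and 70.1 ± 6.29 at 10 Hz (SD, n = 6 each). It was higher at 10 than at 1 Hz by 0.45 ± 0.14 on the log2 scale (SE, edgeR adjusted p = 0.0131), with all 10 Hz libraries (62.3 to 78.4 CPM) above all 1 Hz libraries (45.7 to 59.2 CPM). That difference was 0.34 with the small RNA share as covariate (adjusted p = 0.408) and 0.18 with the ribosomal RNA share (adjusted p = 0.665). Snhg5, host of Snord50a and Snord50b, and Snhg6, host of Snord87, were higher at 4 Hz than in controls by 0.27 ± 0.10 (adjusted p = 0.0366) and 0.33 ± 0.12 (adjusted p = 0.0286). Both had libraries that overlapped the controls. With total count scaling the values were 0.18 (adjusted p = 0.159) and 0.23 (adjusted p = 0.0991), and in limma on log2(TPM + 1) they were 0.01 (adjusted p = 0.952) and 0.12 (adjusted p = 0.474). Leaving out control replicate 4, 5 or 6 or 4 Hz replicate 4 or 5 brought the adjusted p of either above the threshold, as did 4 Hz replicate 3 for Snhg5 (0.0629 to 0.106 over its 6 fits) and control replicate 2 for Snhg6 (0.0503 to 0.0729 over its 6 fits).

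Among hosts of H/ACA snoRNAs other than Snhg7, Snhg8 rose at 4 Hz. Snhg8, host of Snora24, held 40.9, 44.6, 45.6, 53.9, 58.5 and 62.8 CPM in the control libraries in rising order and 62.3, 64.0, 68.5, 78.8, 79.3 and 96.8 CPM at 4 Hz. The lowest 4 Hz library lay below the highest control. The log2 fold change was 0.55 ± 0.14 (SE, edgeR adjusted p = 0.00223, called), and it was 0.48 without 4 Hz replicate 6, under the fold threshold. It was 0.46 with total count scaling, 0.33 in limma on log2(TPM + 1) and 0.53 with the small RNA share as covariate (adjusted p = 0.222). At 10 Hz it was 0.41 ± 0.14 (adjusted p = 0.0770).

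Snhg15, host of Snora9, held 20.0 to 29.2 CPM in controls and 30.2 to 34.8 CPM at 4 Hz with no overlap (log2 fold change 0.31 ± 0.09, SE, edgeR adjusted p = 0.0116). The Snhg15 value at 4 Hz was 0.21 with total count scaling (adjusted p = 0.0610), 0.17 in limma on log2(TPM + 1) (adjusted p = 0.140) and 0.40 with the small RNA share as covariate (adjusted p = 0.176). At 1 Hz Snhg15 held 28.3 to 35.4 CPM, with 5 libraries above all controls (0.37 ± 0.10, adjusted p = 0.00378). That value was 0.30 with total count scaling (adjusted p = 0.0134) and 0.32 in limma (adjusted p = 0.0102). It passed in all 12 fits without a replicate, and was 0.46 with the small RNA share as covariate (adjusted p = 0.284). Snhg12, a mixed host of Snora16a, Snora44, Snora61 and Snord99, was at 38.3 ± 5.72 CPM in controls and 45.4 ± 1.46 at 4 Hz (0.25 ± 0.09, adjusted p = 0.0337). Without control replicate 2, 4 or 5 or 4 Hz replicate 4 the Snhg12 adjusted p was 0.0502 to 0.0772, and it was 0.154 with total count scaling and 0.283 in limma on log2(TPM + 1). Snhg17, whose 3 snoRNA entries carry no family name, was the member besides Snhg7 that separated 10 from 4 Hz. It held 34.5 to 40.4 CPM at 4 Hz and 44.9 to 49.2 CPM at 10 Hz (0.35 ± 0.11, adjusted p = 0.0276). Leaving out 4 Hz replicate 1 or 3, or 10 Hz replicate 1 or 2, raised that adjusted p to between 0.0525 and 0.0607. It was 0.0521 without the filter on low counts, and the value was 0.21 with the small RNA share as covariate (adjusted p = 0.898) and 0.27 with the ribosomal RNA share (adjusted p = 0.509). At 4 Hz against control Snhg17 was at -0.16 ± 0.12 (adjusted p = 0.282), and at -0.27 without control replicate 2 (adjusted p = 0.00712). It also passed the adjusted p there in limma on log2(TPM + 1), with means of 22.1 TPM at 4 Hz and 29.8 TPM in controls.

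**Figure D3:**
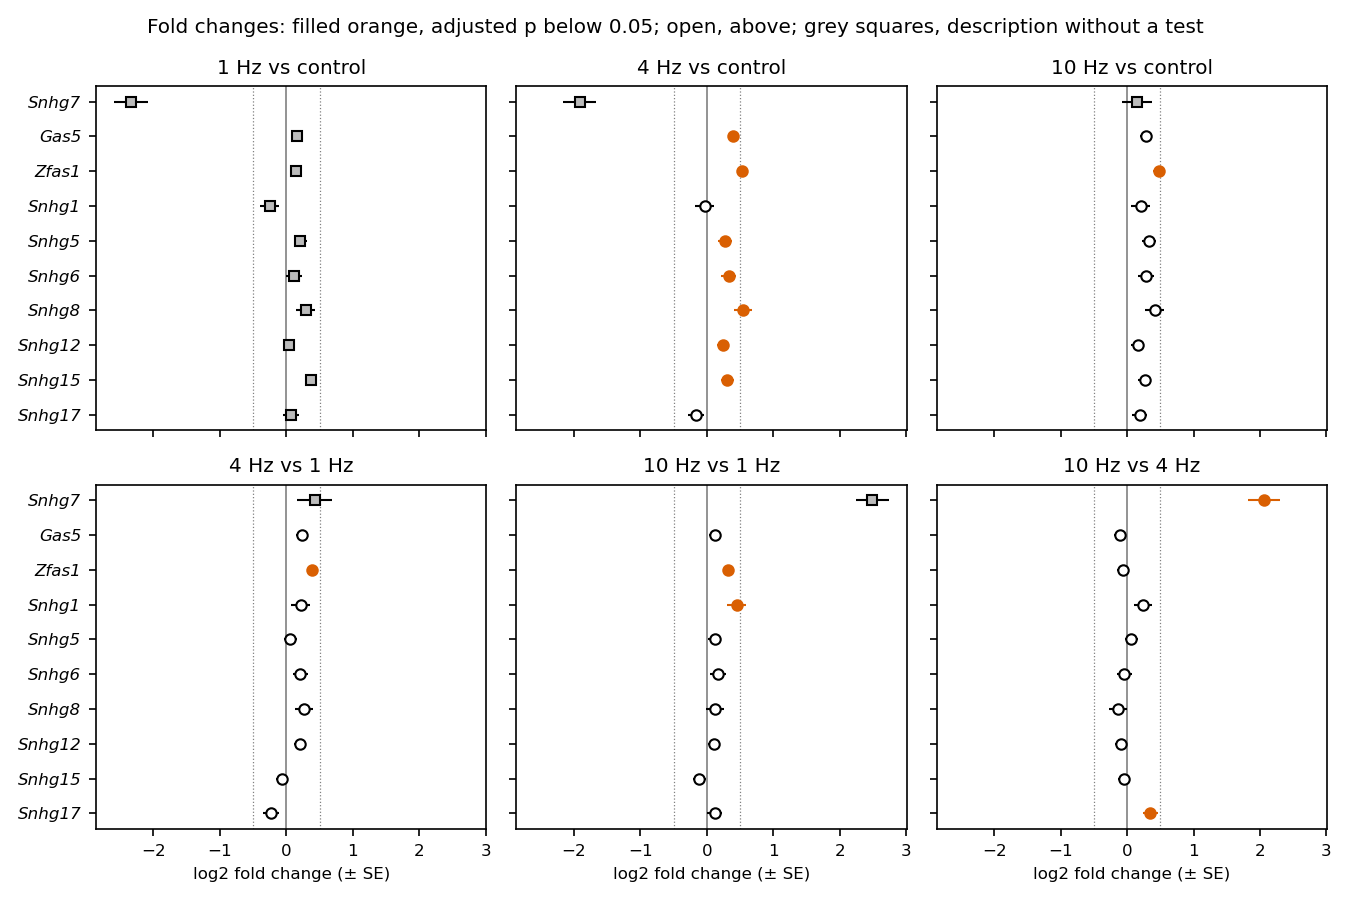
log2 fold change with SE of each member in the 6 comparisons, with dotted lines at the fold threshold of 0.5. Snhg7 lies at -2.34 and -1.92 in the 1 and 4 Hz panels against control and at 2.07 for 10 against 4 Hz, and all other members lie between -0.25 and 0.55.

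Counted over the family, 3 of 10 members were called at 4 Hz against control, Snhg8 and Zfas1 higher and Snhg7 lower, beside 20.1% of all genes. The Snhg7 count there draws on the control libraries it was chosen with. By adjusted p alone it was 8 of 10, beside 39.4% of all genes, and 7 of the 8 were higher. Of these 8, 4 (Snhg7, Snhg8, Gas5 and Zfas1) passed with total count scaling and in limma on log2(TPM + 1), 3 (Snhg7, Gas5 and Zfas1) with the ribosomal RNA share as covariate and 0 with the small RNA share. The number of all 13318 genes called by adjusted p and fold there was 2676, or 703 with the ribosomal RNA share and 220 with the small RNA share. Counted by adjusted p alone, 5640 of 13318 genes passed with total count scaling and 5159 of 13627 in limma, which also passed Snhg17. The number was 1061 of 13318 with the ribosomal RNA share and 261 of 13318 with the small RNA share. The median log2 fold change of the 9 members other than Snhg7 was 0.31, beside -0.01 over all genes. At 1 Hz against control 1 of 10 was called, Snhg7, beside 18.3% of all genes (2 by adjusted p alone, Snhg7 and Snhg15, beside 35.4%), a comparison the selection used. The 9 other members there ran from -0.25 (Snhg1) to 0.37 (Snhg15) on the log2 scale.

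At 10 Hz against control all 10 members had fold changes above 0, from 0.15 to 0.47 on the log2 scale with a median of 0.27, beside -0.01 over all genes. Snhg7 turned to -0.02 without 10 Hz replicate 2 and to -0.08 in limma on log2(TPM + 1). edgeR called 0 of 10, beside 1.86% of all genes, with 1 past the adjusted p (Zfas1, beside 4.89%) and 6 past an unadjusted p of 0.05. DESeq2 also called 0 and passed 4 by adjusted p, beside 986 of 13318 genes. The share of all genes past the unadjusted p is not given here for the 6 comparisons. For 4 against 1 Hz edgeR called 0 of 10 beside 3.00% of all genes, with 1 past the adjusted p (Zfas1, beside 12.3%) and 3 past the unadjusted p, and DESeq2 called 0. For 10 against 1 Hz 1 of 10 was called, Snhg7, beside 17.9% of all genes, and 3 passed the adjusted p, beside 36.3%. Snhg7 was chosen with those 1 Hz libraries, so its count there is a description. For 10 against 4 Hz 2 passed the adjusted p, Snhg7 and Snhg17, beside 22.8% of all genes. The 6 comparisons were made among 4 groups, so each shares libraries with others and they are not independent.

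The relation to the small RNA share was uneven across the other members. Within controls all 10 members had a positive Pearson r with the share, with a median of 0.69 beside -0.005 over all tested genes. Without the 2 control libraries farthest from the median share, r over 4 libraries ran from -0.57 (Snhg8) to 0.72 (Gas5). It was 0.40 for Snhg7, whose rho over the 6 controls was 0.26. Within 1 Hz 4 of 10 were positive (median -0.39), within 4 Hz 3 of 10 (median -0.21) and within 10 Hz 8 of 10 (median 0.20). For Snhg7 r was 0.65 in controls, 0.85 at 1 Hz, 0.04 at 4 Hz and 0.92 at 10 Hz. At 10 Hz Spearman's rho was 0.94 (exact permutation p = 0.0167, adjusted p = 0.222), the exact permutation p for r was 0.00833 and its adjusted p over the 40 correlations 0.111. Without the 2 libraries farthest from the median share r was 0.75 over 4 libraries. Snhg12 at 10 Hz had r = 0.97 and rho = 0.94 (exact permutation p = 0.00278 and 0.0167, adjusted p = 0.0556 and 0.222), and 0.99 without the 2 farthest. Of the 40 correlations 6 had an unadjusted exact permutation p below 0.05 and 0 an adjusted one.

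**Figure D4:**
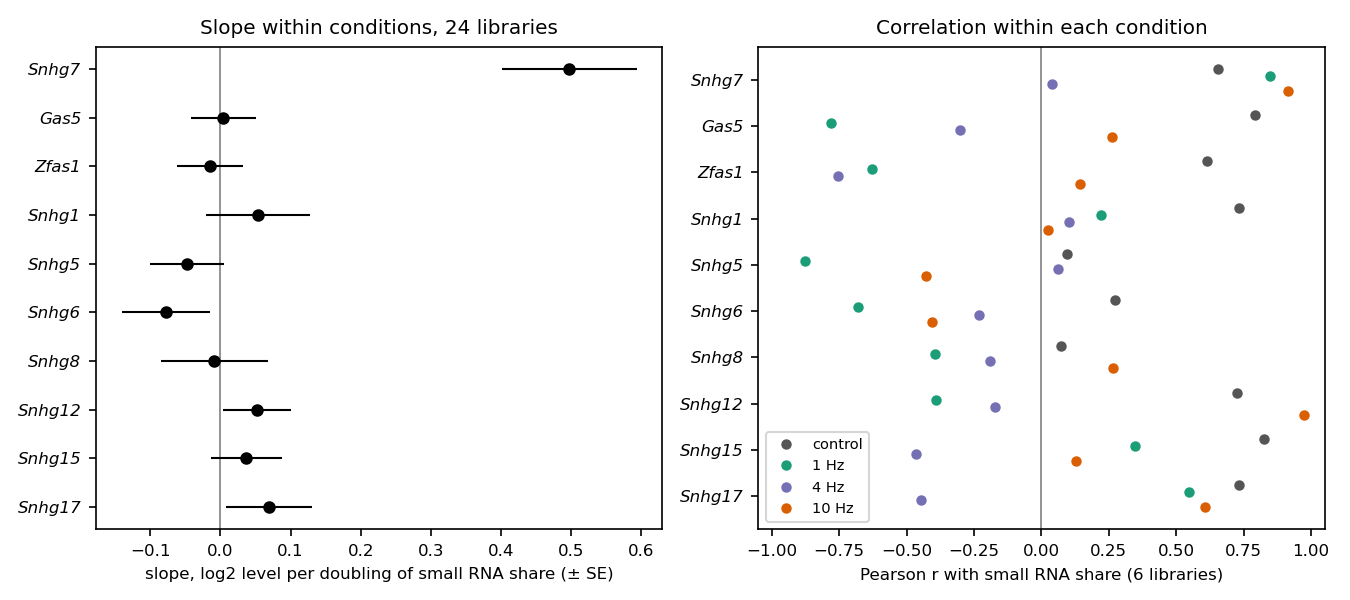
Left, slope of each member's log2 level on the log2 small RNA share within conditions, with SE, from 24 libraries. Right, Pearson r of each member with the share in the 6 libraries of each condition. Snhg7 has a slope of 0.50 while the others lie between -0.08 and 0.07.

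The members other than Snhg7 tended to move with each other inside conditions. For deviations from the condition means over 24 libraries, the median r was 0.49 over the 36 pairs without Snhg7 and 0.31 over the 9 pairs with it. The pair closest to Snhg7 was Snhg12 (r = 0.47) and the farthest Snhg5 (r = -0.18). These values describe libraries that share depth and composition. The median r over pairs of all genes was not computed, so how far 0.49 is particular to the members was not tested.

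Genes on the opposite strand were checked because reads of overlapping genes can be mixed where counting does not use strand, which the sources used here do not state. Snhg7 overlaps Snhg7os, which had 44 counts over all libraries beside 4647 for Snhg7. Slc3a2, an amino acid transporter subunit that shares 552 exon bases with Snhg1, had a log2 fold change of 0.43 at 1 Hz where Snhg1 had -0.25. Znfx1, which overlaps Zfas1, fell at 4 Hz by 0.46 ± 0.09 on the log2 scale (SE, edgeR adjusted p = 0.000158), where Zfas1 rose by 0.54. Zbtb37, which overlaps Gas5, had a log2 fold change of -0.30 (adjusted p = 0.0920) at 4 Hz against control. Snhg6 overlaps Sgk3, with 400 counts in all beside 7132 for Snhg6.

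Other noncoding hosts outside the 10 included some with Snhg7's direction. Of 11 tested rows for 10 symbols in that list, 4 were called higher and 0 lower at 10 than at 4 Hz, beside 11.0% of all genes called in either direction: Snhg3, Snhg20, Dancr and Snhg10, named here after their values were seen because their levels were below the 10 CPM set for naming. Snhg3 was at 11.3 ± 2.31 CPM in controls, 6.96 ± 2.90 at 1 Hz, 6.75 ± 2.13 at 4 Hz and 13.0 ± 2.09 at 10 Hz (SD, n = 6 each), and from 4 to 10 Hz it rose by 0.95 ± 0.22 on the log2 scale (SE, edgeR adjusted p = 0.00338). The list's median was 0.29 for 10 against 4 Hz and 0.09 for 4 Hz against control.

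Nuclear-retained long noncoding RNAs were also higher at 10 Hz. All 3 tested of 7 listed were called higher at 10 than at 4 Hz, beside 11.0% of all genes called in either direction. The calls in this list and the previous one were absent with the small RNA share as covariate, where 0 of 13318 genes were called by edgeR. Malat1 was at 1044 ± 317 CPM at 4 Hz and 2003 ± 837 at 10 Hz (log2 fold change 0.94 ± 0.24, SE, edgeR adjusted p = 0.00570). Neat1, the scaffold of paraspeckles, was at 127 ± 23.1 and 241 ± 54.5 CPM (0.92 ± 0.18, adjusted p = 0.000941).

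No gene of 4 lists related to snoRNAs or ribosome assembly was called between 10 and 4 Hz, beside 11.0% of all genes. In lists of 6 to 16 genes that share amounts to few calls. Of 11 box C/D snoRNP proteins and assembly factors edgeR called 0 at 10 against 4 Hz, with 2 past the unadjusted p and 0 called by DESeq2. Of 6 box H/ACA snoRNP proteins and assembly factors it called 0, with 1 past the unadjusted p and 0 called by DESeq2. Their medians were 0.13 and -0.07 on the log2 scale. Of 16 protein-coding snoRNA hosts it called 0, with 4 past the unadjusted p and 0 called by DESeq2. Of 10 ribosome biogenesis regulators it called 0, with 2 past the unadjusted p and 0 called by DESeq2.

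Nonsense-mediated decay factors and ribosomal proteins are given at 4 Hz against control, where 20.1% of all genes were called. Of 15 decay factors 2 were called lower and 0 higher, and the median was -0.25 beside -0.01 over all genes. The called ones, named for this comparison, were Smg8 and Rbm8a. Smg8, of the SMG1 kinase complex, fell by 0.61 ± 0.11 on the log2 scale (SE, edgeR adjusted p = 0.000147). Rbm8a, of the exon junction complex, fell by 0.55 ± 0.10 (adjusted p = 0.000132). Of 79 cytosolic ribosomal proteins tested 11 were called higher and 0 lower, and the median was 0.31, the same to 2 decimals as for the 9 members other than Snhg7. For 10 against 4 Hz the ribosomal protein median was -0.10, with 1 called lower, the muscle paralogue Rpl3l (7.34 CPM, below the 10 CPM for naming). Of the 15 decay factors 0 were called there, beside 11.0% of all genes, with a median of 0.20. Past the adjusted p at 4 Hz against control were 52 of the 79 ribosomal proteins, all 52 higher, beside 39.4% of all genes. So were 7 of the 15 decay factors, 0 of them higher. The other lists also had genes past the adjusted p there. These were 2 of 11 box C/D factors, 3 of 6 box H/ACA factors, 5 of 16 protein-coding hosts and 5 of 10 biogenesis regulators.

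The 3 genes most like Snhg7 by each measure were protein-coding. The search left out genes with provisional symbols, such as Gm, Rik and clone names, so unnamed noncoding genes could not appear. Among the 9043 genes left at 10 CPM or more, the highest Pearson r of log2 CPM over all 24 libraries was with Rbm8a (0.96), Prdx6 (0.95), a peroxiredoxin, and Slc7a6os (0.95). For deviations from condition means they were Brd2 (0.89), a bromodomain protein, Rbm8a (0.88) and Slc7a6os (0.87). Rn7sk, the 7SK RNA that is part of the small RNA share, ranked 6 over all libraries (r = 0.94) and is named after its value was seen. The range of the protein-coding genes was smaller than that of Snhg7. Rbm8a was at 141 ± 11.6 CPM in controls, 91.1 ± 11.6 at 1 Hz, 96.1 ± 11.9 at 4 Hz and 135 ± 20.2 at 10 Hz (SD, n = 6 each), a difference of 0.50 ± 0.10 from 4 to 10 Hz on the log2 scale beside 2.07 for Snhg7. Slc7a6os was at 52.4 ± 7.44, 32.4 ± 5.08, 33.8 ± 4.15 and 52.2 ± 11.9 CPM in the same order. Among the members Snhg1 was nearest over all libraries, with r = 0.50 and rank 1707 of 9043.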

How the data were processed

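RNA was poly(A) selected with a directional kit, low-input samples were ribodepleted, and libraries were read as 50-base pairs on a Singular G4. The authors processed reads with nf-core/rnaseq on GRCm39 and Ensembl annotation and deposited salmon's estimated counts per gene, not normalised, and TPM, scaled by length and library. The submitters' processing notes also name STAR, BWA 0.7.12-r1039 and bedtools 2.25.0.

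Here the estimated counts were rounded, filtered (edgeR's filterByExpr by condition), scaled by TMM and fitted over 24 libraries with edgeR 4.0.16 (R 4.3.3), with Benjamini-Hochberg adjustment over 13318 genes (99.8% of counts). CPM are TMM-normalised, log2 CPM with a prior count of 2. Per-library depth (4085578 to 15194554 counts) limits low genes most. DESeq2 1.42.0 and limma 3.58.1 on log2(TPM + 1) were alternatives. In counts simulated for 10 against 4 Hz over 13318 genes, 98.0% of genes changed by 2 on the log2 scale were recovered. For changes of 1 and 0.75 it was 87.8% and 70.9%, and no smaller change was simulated for that comparison. The 60 same-condition library pairs all differed beyond sampling noise (chi-square per degree of freedom 3.16 to 38.4), so none was counted as a copy.

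Members and lists were chosen with earlier results of these data known. Named were the 10 members, up to 3 genes per list with the largest change among those called at 10 against 4 Hz with mean CPM of at least 10, and the 3 genes most like Snhg7 by each measure. Positions and snoRNA sequences came from GENCODE M39 on GRCm39, promoters from RefSeq on GRCm38.p6. Of 25 listed small RNA symbols 20 were in the table.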

Additional observations from a re-analysis of the deposited data

Results flagged for a closer look

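Of 56 groups of 6 libraries checked for a sample far from the rest (10 members and 4 library measures in 4 conditions), 6 held one by Dixon's test, which flags about 1 group in 20 by chance. Control replicate 2 was low for Snhg7, at 24.8 CPM with the next library at 39.3, and for Snhg17, at 22.8 CPM with the next at 42.0. At 1 Hz, replicate 6 was high for Snhg8 (82.1 CPM, next 64.1) and replicate 3 low for Snhg15 (28.3 CPM, next 33.3). The small RNA share was high in 1 Hz replicate 1 (69.2 CPM, next 34.8) and in 4 Hz replicate 3 (49.7 CPM, next 28.2). Control replicate 2 also had the lowest small RNA share of the controls, 96.1 CPM. The part of these libraries in the results above was not tested beyond leaving each out.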

How the results depend on the processing

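Counts of called members, or of correlations past the adjusted p, stayed within 1.5 times the main count in 59 of 77 alternatives. Fits that left out a single replicate are not among the 77. Some of the 77 used only part of the 24 libraries, such as the slope fits with only or without the 10 Hz libraries. At 4 Hz against control the count was 1 with total count scaling, with limma on log2(TPM + 1) or log2(TPM + 0.1) and with the ribosomal RNA share as covariate, in place of 3. With the small RNA share as covariate it was 0 at 1 and 4 Hz against control and for 10 against 4 Hz, and with the ribosomal RNA share 0 at 1 Hz against control and for 10 against 4 Hz. Most genes lost their call in these fits: of 13318 genes the small RNA fit called 1, 220 and 0 at 1 Hz and 4 Hz against control and for 10 against 4 Hz, and the ribosomal RNA fit 2, 703 and 18, in place of 2441, 2676 and 1460. By adjusted p alone the counts were 2 (1 Hz), 8 (4 Hz) and 1 (10 Hz) against control, 1 for 4 against 1 Hz, 3 for 10 against 1 Hz and 2 for 10 against 4 Hz. The slope call was lost (0 members) with limma on log2(TPM + 1), under the replicate block, and without the 10 Hz libraries, an alternative chosen after seeing the data. Whether replicate numbers pair the samples is not stated by the labels and was not settled. Of 24 libraries 10 correlated best with a library of their own number in another condition. The mean r within a number ran from -0.003 to 0.12. The block changed no other count of called members. By adjusted p alone the block gave 7 members at 4 Hz (Snhg5 lost) and 3 at 10 Hz against control (Snhg8 and Gas5 added). Of all 13318 genes it passed 5501 and 828 in these comparisons. Leaving out each replicate gave counts of 2 to 3 at 4 Hz, 0 to 1 at 10 Hz and 1 in every fit at 1 Hz against control, 0 in every fit for 4 against 1 Hz, 1 in every fit for 10 against 1 Hz and for 10 against 4 Hz, and 0 to 1 for the slope. Snhg7 changed sign at 10 Hz against control in limma (-0.0803 with a pseudocount of 1 and -0.0839 with 0.1), where it was not called, to -0.02 there without 10 Hz replicate 2, and its r at 4 Hz became -0.16 without the 2 libraries farthest in share. Values past the main test kept their sign in 187 of 187 alternatives; those of the other 9 members that missed it changed sign in 25 of 451. The cause of these shifts was not tested.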
